A study of Homo sapiens with 6 samples.

Results

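The ATP-binding cassette (ABC) genes encode a large family of membrane pumps and a few soluble relatives, and they were followed through a time course of HepG2 cells exposed to a Scutellaria baicalensis extract. Members were all genes whose symbol in the scanner files has the form ABC, a subfamily letter from A to G and a number. This gave 47 of the 17482 genes named on the array, read by 66 of 40895 probes. Subfamily A held 13 members, B 9, C 12, D 4, E 1, F 3 and G 5. ABCA11 and ABCC13 are transcribed pseudogenes. All probes are DNA oligonucleotides of 60 bases.

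HepG2 is a human hepatoma cell line, grown here in dishes. Scutellaria baicalensis, Chinese skullcap, is a plant of the mint family. The series asks how expression depends on the time of exposure. One array carried RNA of control cells, for which the labels give neither a time nor a vehicle, and each of 5 further arrays held RNA from cells kept with the extract, at 100 µg/ml, for 1, 3, 6, 12 or 24 h. Every group held 1 array of a single cell line, so no p-value can be given at a single time, and every treated array was compared with the same control array. Cell number and RNA per cell cannot be told apart in such bulk RNA.

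ABC proteins bind and hydrolyse ATP at paired nucleotide-binding domains and use the energy to move a substrate across a membrane. In hepatocytes some members carry drugs, conjugates, bile salts, phospholipid and sterols out of the cell, and others serve mitochondria, peroxisomes or lysosomes. Members of subfamilies E and F have no membrane-spanning part and act on ribosomes and translation. P-glycoprotein, the product of ABCB1, is known for pumping many unrelated drugs out of cells.

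The values rest on what each probe can bind, so the probes behind the main results are shown here, 5′ to 3′, as the deposited scanner files give them. Where a probe's ends lie further apart in the genome than its own length, it crosses an exon junction and is shown whole. Otherwise its first 30 bases are shown. For ABCB1 (chromosome 7), the gene with the largest difference, 1 probe was present; its ends lie 3291 bases apart, and it lies in coding sequence of a nucleotide-binding domain. For ABCD3 (chromosome 1) and ABCC6 (chromosome 16), 2 probes each gave unlike differences, and in each pair the brightest one, used throughout, is given first; the other ABCD3 probe has its ends 4729 bases apart.
ABCB1 probe: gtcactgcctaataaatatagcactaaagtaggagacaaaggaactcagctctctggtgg
ABCD3 probe used: tgtaaaccattcgaagtcagctaattggac
ABCD3 other probe: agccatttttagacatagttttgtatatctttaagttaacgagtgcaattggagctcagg
ABCC6 probe used: gttcccccactggctgtattataggacaat
ABCC6 other probe: tgggccagaaacagctcctgtgtctggcac

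Signals are given as scaled log2 signal, which is log2 of the scanner's processed signal minus log2 of the array's 75th percentile, so 0 is the level of that percentile on each array. A member was measured at a time when its probe was well above background and unsaturated on both the treated and the control array. The error after ± describes 1 probe: it is the SD with which a log2 difference varies between probes of a gene, from 2934 to 4693 such pairs, and was 0.35, 0.44, 0.77, 0.68 and 0.69 at 1, 3, 6, 12 and 24 h. Variation from culture to culture or array to array is not in it. Brightness was uneven over the arrays, with a 75th percentile of 768 units in control cells, then 1090, 1900, 153, 420 and 1640 units at 1, 3, 6, 12 and 24 h. The share of probes well above background was 49.5% at 6 h, while elsewhere it ran from 64.4% to 73.2%. The dim 6 h and 12 h arrays stand apart, and the trend over time is also given without them. All 10 hepatocyte marker genes examined were well above background on all 6 arrays, as were 3 of 4 biliary, 3 of 6 haematopoietic, 1 of 5 endothelial and 0 of 6 fibroblast and stellate markers.

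Of the 47 members, 28 were well above background on all 6 arrays, 7 on 3 to 5 arrays and 12 on none. The 12 without a signal well above background included ABCB11, which encodes the bile salt export pump of the hepatocyte's canalicular membrane. No member was saturated. ABCA3, ABCA4, ABCB9, ABCC4 and ABCC8 were dim at 6 h alone, the array on which the fewest probes of any kind were detected.

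Few members stood 2-fold or more from the control at any time, and the most that were higher, 5, were at 24 h. At 1 h, 0 of the 33 members measured reached 2-fold higher, where 2.23% of all measured genes did, and 0 were at least 2-fold lower (0.663% of all genes). At 3 h, 0 of 34 were higher (3.07% of all genes) and 1, ABCC5, was lower (3.11%). At 6 h, 4 of 28 were higher (ABCB6, ABCC6, ABCB8 and ABCC10), 14.3% beside 23.3% of all genes. ABCD3 alone was lower at 6 h, beside 9.95% of all genes. At 12 h, 3 of 33 were higher (ABCC6, ABCB6 and ABCD4), 9.09% beside 12.6% of all genes, and ABCD3 was again the 1 member lower (8.09% of all genes). At 24 h, 5 of 34 were higher (ABCB1, ABCF2, ABCA11, ABCC10 and ABCF1), 14.7% beside 6.97% of all genes, and 0 were lower (9.62% of all genes). The shares at 6 h and 12 h were therefore below those over all genes, and only the share higher at 24 h lay above it.

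The medians moved little. The members' median log2 difference was -0.02, 0.14, 0.34, 0.16 and 0.22 at 1, 3, 6, 12 and 24 h. Over all measured genes it was -0.06, -0.05, 0.35, 0.21 and 0.004 at the same times. An offset thus remained after the scaling at 6 h and 12 h, and its cause was not tested. Less that offset, 3 members lay above the 2-fold mark at 6 h, beside 12.6% of all genes, and 3 below it, beside 16% of all genes. At 12 h 1 lay above (6.91% of all genes) and 3 below (11.6%). At 24 h 5 lay above (6.85%) and 0 below (9.7%).

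**Figure D1:**
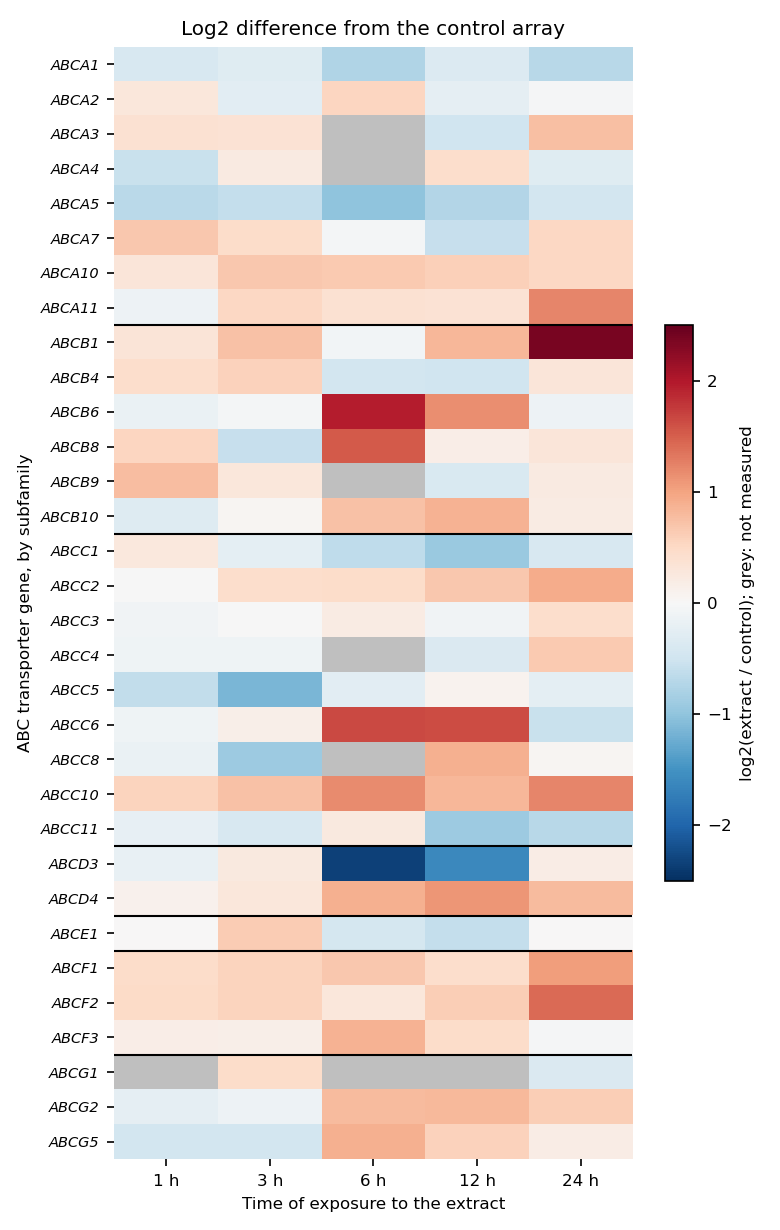
Log2 difference of each treated array from the control array for measured members, in rows by subfamily A to G (black lines between them), with time of exposure across; red is higher and blue lower in exposed cells, and grey is not measured. ABCB1 at 24 h (2.37) and ABCB6 at 6 h (1.96) are the deepest red, and ABCD3 at 6 h (-2.33) the deepest blue.

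**Figure D2:**
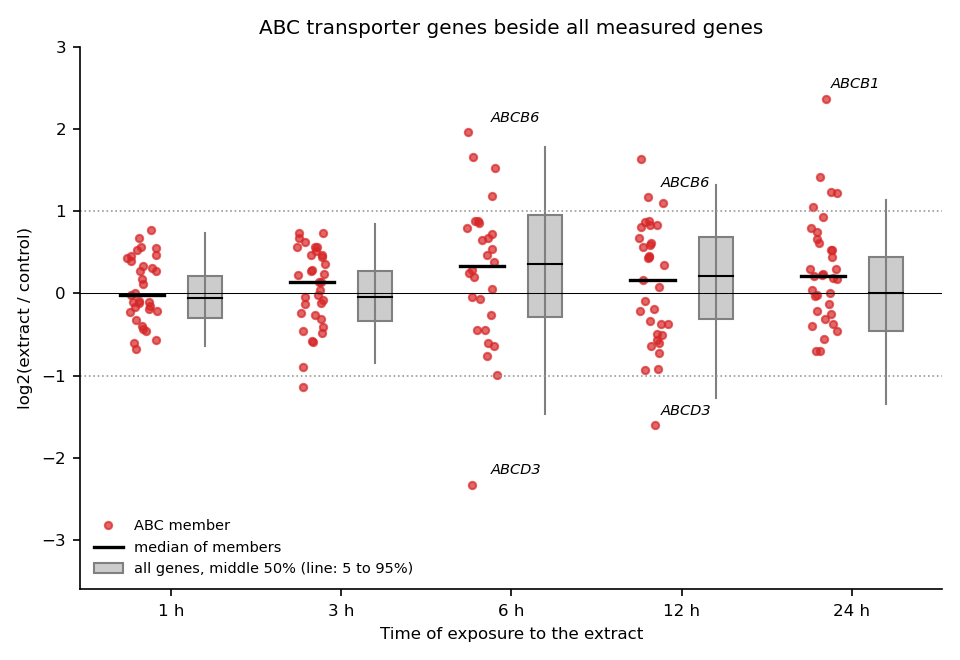
Log2 difference from the control array (vertical axis) at each time, for measured members (red points, spread sideways at random, with their median as a black bar) and for all measured genes (grey box from the 25th to the 75th percentile, line from the 5th to the 95th). Dotted lines mark 2-fold, and ABCB1 at 24 h lies furthest above the range of all genes.

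Among the drug efflux pumps, ABCB1 had the largest difference. ABCB1 had a scaled log2 signal of -0.15 in control cells, then 0.17, 0.58, -0.22, 0.68 and 2.22 at 1, 3, 6, 12 and 24 h. The signal was highest at 24 h, was close to the control at 6 h, and stood in between at 1, 3 and 12 h. The unscaled signal of the probe was 689.9 units in control cells, then 1230, 2836, 131.5, 673.2 and 7616 units at the 5 times. ABCB1 was printed in 10 spots on each array, of which 8 to 10 were unflagged, and their SD lay between 0.043 and 0.11 on the log2 scale. The lowest spot at 24 h, at 2.15, lay above the highest spot on every other array, 0.74 at 12 h, while spots at 6 h overlapped those of the control. The difference from the control was 2.37 ± 0.69 at 24 h, which is 5.17-fold, and 13 of 13037 measured genes were higher by more. At 1, 3, 6 and 12 h it was 0.33, 0.73, -0.06 and 0.84. Spots of 1 array share the RNA and the labelling, so their SD is technical.

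ABCC2 encodes MRP2, which secretes conjugates of bilirubin and drugs into bile. ABCC2 had a scaled log2 signal of 3.39 in control cells, then 3.37, 3.83, 3.85, 4.06 and 4.32 at 1, 3, 6, 12 and 24 h. The control and 1 h arrays were lowest and the 24 h array was highest. The differences were -0.02, 0.44, 0.46, 0.67 and 0.93, and another ABCC2 probe gave 0.24, 0.92, 1.11, 0.83 and 1.04. The direction of the probe used turned at 6 h, with differences of -0.996 under another background correction (normexp), -0.09 under quantile and -0.24 under cyclic loess normalization.

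ABCC3, the marker of basolateral export of glucuronides (MRP3), stayed within its error of the control. Its scaled log2 signal was 2.36 in control cells, then 2.27, 2.35, 2.56, 2.27 and 2.81 at 1, 3, 6, 12 and 24 h. The difference at 24 h, 0.45 ± 0.69, was smaller than the error. At 6 h it was 0.20, but -1.07 with the normexp correction, -0.18 with quantile and -0.25 with cyclic loess normalization.

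ABCC1 (MRP1) exports glutathione conjugates. ABCC1 had a scaled log2 signal of -0.09 in control cells, then 0.19, -0.32, -0.73, -1.01 and -0.49 at 1, 3, 6, 12 and 24 h. It was lower than the control on the last 4 arrays, lowest at 12 h, with differences of 0.27, -0.23, -0.64, -0.93 and -0.40, none of which reached 2-fold.

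ABCG2 encodes the breast cancer resistance protein, an efflux pump for drugs and urate. ABCG2 had a scaled log2 signal of 1.20 in control cells, then 0.97, 1.07, 1.995, 2.0 and 1.81 at 1, 3, 6, 12 and 24 h. The last 3 times were higher than the control and the first 2 slightly lower. The differences at 6, 12 and 24 h were 0.80 ± 0.77, 0.80 ± 0.68 and 0.62 ± 0.69. With the normexp correction the first of these was -0.37.

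ABCC10 (MRP7) exports lipophilic drugs and conjugates. ABCC10 had a scaled log2 signal of -1.25 in control cells, then -0.69, -0.51, -0.07, -0.41 and -0.03 at 1, 3, 6, 12 and 24 h. All 5 treated arrays were above the control. The difference was 1.18 ± 0.77 at 6 h and 1.22 ± 0.69 at 24 h. At 24 h 532 of 13037 genes were higher by more, but at 6 h, where the whole distribution was shifted, 1850 of 10630 were. With the normexp correction the difference at 6 h was 0.99.

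ABCC4 (MRP4), which carries cyclic nucleotides and bile salts across the basolateral membrane, had a scaled log2 signal of -3.83 in control cells, then -3.94, -3.95, -5.11, -4.20 and -3.17 at 1, 3, 6, 12 and 24 h. It was not well above background at 6 h. The differences were -0.11, -0.12, -0.37 and 0.66 at 1, 3, 12 and 24 h, and another ABCC4 probe gave 0.17, 0.45, 1.43 and 0.94. The probes differed most at 12 h, where the first gave 1.13 with the normexp correction.

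**Figure D3:**
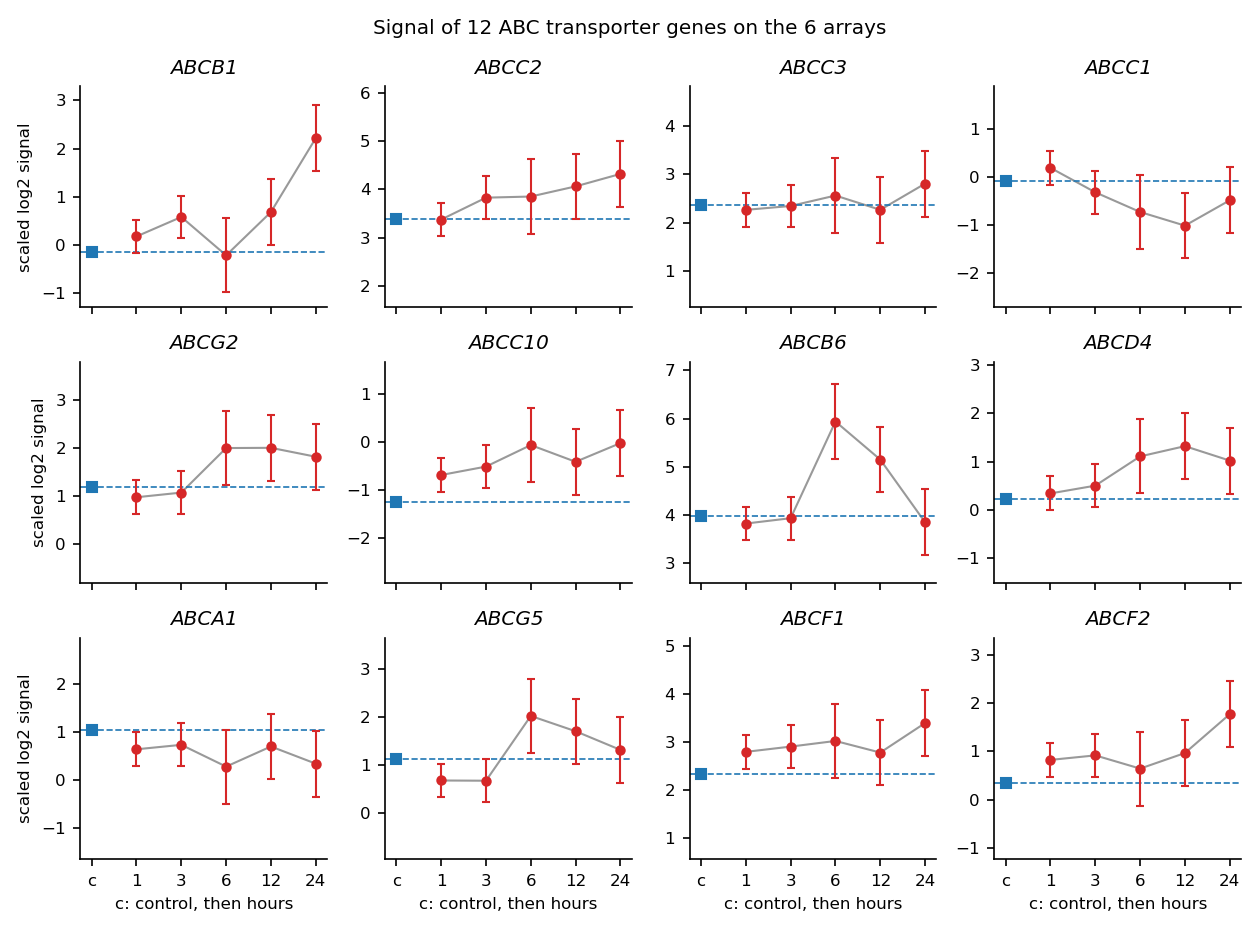
Scaled log2 signal (vertical axis, the same span in each panel) of 12 members on the control array (blue square and dashed line) and at 1, 3, 6, 12 and 24 h (red points, with bars of ± 1 SD of a single probe's difference). ABCB1 is highest at 24 h (2.22 against -0.15 on the control array), ABCB6 at 6 h (5.94 against 3.98), and ABCC3 stays close to the control line.

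ABCA1, ABCG1, ABCG5, ABCG8 and ABCB4 move lipids into blood or bile. Of these, ABCA1, ABCG5 and ABCB4 were measured at all 5 times, and their brightest probes stayed within 2-fold of the control. ABCG1 was measured at 2 times and ABCG8 at none. ABCA1 loads cholesterol and phospholipid onto apolipoprotein A-I. ABCA1 had a scaled log2 signal of 1.04 in control cells, then 0.64, 0.73, 0.28, 0.70 and 0.34 at 1, 3, 6, 12 and 24 h. All 5 treated arrays were lower than the control, with differences between -0.76 at 6 h and -0.31 at 3 h. ABCA1 and ABCA5 were the 2 members, of 28 measured at all 5 times, below the control at every time, 7.14% beside 12.4% of all genes so measured. The other ABCA1 probes were dimmer. One gave 0.69 at 1 h and -0.39 at 3 h, and was not well above background at 6, 12 and 24 h; its bounds were at least 2.68-fold lower at 12 h and at least 6.62-fold lower at 24 h. The other gave -0.20, 0.36 and -0.21 at 1, 3 and 24 h. The mean over all ABCA1 probes was -1.65 at 12 h and -1.58 at 24 h. That mean takes in signals not well above background, so it is not a measured difference. Among them were -7.23 at 12 h and -7.62 at 24 h for the first of the other probes. The size of the ABCA1 difference at these times depended on the probe.

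ABCG1, which passes sterol to high-density lipoprotein, was well above background on the control, 3 h and 24 h arrays only. ABCG1 had a scaled log2 signal of -5.62 in control cells, then -6.46, -5.16, -5.42, -5.14 and -5.99 at 1, 3, 6, 12 and 24 h, and it was at least 1.51-fold lower at 1 h. The differences measured were 0.46 at 3 h and -0.37 at 24 h, and that at 3 h was -0.48 with the normexp correction. The dim signals at 1, 6 and 12 h are not levels, and no bound could be set at 6 h and 12 h.

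ABCG5 and ABCG8 form a single pump that secretes sterols into bile. ABCG5 had a scaled log2 signal of 1.14 in control cells, then 0.68, 0.68, 2.02, 1.71 and 1.32 at 1, 3, 6, 12 and 24 h. It was lower than the control at 1 and 3 h, by -0.45 and -0.46, and higher at 6, 12 and 24 h, by 0.89 ± 0.77, 0.57 ± 0.68 and 0.18 ± 0.69. At 6 h its difference was -0.28 with the normexp correction. In control cells ABCG8 was too dim to be called well above background, and it was at least 1.27-fold, 1.01-fold and 1.65-fold higher at 1, 3 and 24 h. Its scaled log2 signal was -7.91 in control cells, then -5.67, -5.99, -5.38, -6.47 and -5.29 at the 5 times, of which those at 6 h and 12 h were not well above background.

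ABCB4, which flips phosphatidylcholine toward bile, had a scaled log2 signal of -2.95 in control cells, then -2.51, -2.38, -3.40, -3.46 and -2.65 at 1, 3, 6, 12 and 24 h. The treated arrays lay on both sides of the control. The difference was -0.45 at 6 h and -0.51 at 12 h, but 1.81 and 0.73 with the normexp correction, and 0.11 at 6 h by the authors' deposited table. ABCB11 was not well above background on any array. Its scaled log2 signal was -6.65 in control cells, then -7.96, -8.13, -5.24, -7.06 and -6.94 at the 5 times, values that have no order.

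The mitochondrial and related members of subfamily B differed among themselves. ABCB6, a porphyrin transporter, had a scaled log2 signal of 3.98 in control cells, then 3.82, 3.93, 5.94, 5.15 and 3.85 at 1, 3, 6, 12 and 24 h. By this probe it was high on the dim 6 h and 12 h arrays and at the control's level on the other 3 treated arrays. The difference was 1.96 ± 0.77 at 6 h and 1.17 ± 0.68 at 12 h, and the other ABCB6 probe gave 1.18 and 0.76. At 1, 3 and 24 h that probe gave 0.49, 0.69 and 0.64, above the control and, at 1 and 3 h, by more than the error. With the normexp correction it was 0.35 at 6 h and 0.77 at 12 h, and with quantile and cyclic loess normalization it was 0.70 and 0.63 at 12 h. At 24 h the difference was -0.13.

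ABCB8, a transporter of the inner mitochondrial membrane, had a scaled log2 signal of -3.00 in control cells, then -2.47, -3.58, -1.47, -2.84 and -2.70 at 1, 3, 6, 12 and 24 h. The 6 h array was furthest above the control, with a difference of 1.53 ± 0.77. At 12 h the difference was 0.16, and 0.98 with the normexp correction.

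ABCB10, which supports haem synthesis, was read by 4 probes. Its brightest probe had a scaled log2 signal of 0.46 in control cells, then 0.14, 0.51, 1.19, 1.34 and 0.68 at 1, 3, 6, 12 and 24 h. That probe was 0.72 higher at 6 h and 0.87 higher at 12 h. At 6 h 2 other ABCB10 probes gave -0.97 and -0.17, and at 12 h the 3 others gave -1.02, 0.23 and -1.45. No direction is given for ABCB10 at these times.

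ABCD3 encodes PMP70, a peroxisomal membrane protein that carries branched-chain fatty acids and bile acid precursors. The brightest ABCD3 probe had a scaled log2 signal of 0.71 in control cells, then 0.53, 0.95, -1.62, -0.89 and 0.90 at 1, 3, 6, 12 and 24 h. It was low on the dim 6 h and 12 h arrays and near the control on the other 3. Its difference was -2.33 ± 0.77 at 6 h and -1.61 ± 0.68 at 12 h. The ABCD3 probe that crosses an exon junction gave 1.07 and 0.57 at these times and 1.16 at 3 h. The mean over both probes was -0.63 at 6 h and -0.52 at 12 h, so whether ABCD3 RNA was lower at 6 h and 12 h depended on the probe.

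ABCD4, which moves cobalamin out of lysosomes, had a scaled log2 signal of 0.23 in control cells, then 0.34, 0.50, 1.11, 1.32 and 1.02 at 1, 3, 6, 12 and 24 h. It was described after its values were seen. All 5 treated arrays were above the control, with a difference of 1.10 ± 0.68 at 12 h and of 0.80 ± 0.69 at 24 h. The difference at 12 h was under 2-fold with the authors' deposited table, with cyclic loess normalization and less the median of all genes. RefSeq gave no name for its 1 probe.

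ABCC6 is a liver transporter on which release of ATP from hepatocytes depends. The brightest ABCC6 probe had a scaled log2 signal of 2.68 in control cells, then 2.57, 2.82, 4.33, 4.31 and 2.12 at 1, 3, 6, 12 and 24 h. It was high on the 6 h and 12 h arrays only. The differences at 6, 12 and 24 h were 1.65 ± 0.77, 1.63 ± 0.68 and -0.56 ± 0.69, against 0.50, 0.14 and 0.82 for the other ABCC6 probe. With the normexp correction it was 0.16 at 6 h. ABCC6 has near-identical pseudogenes, and the brightest probe's accession had no match in the RefSeq table, so these values are uncertain.

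**Figure D4:**
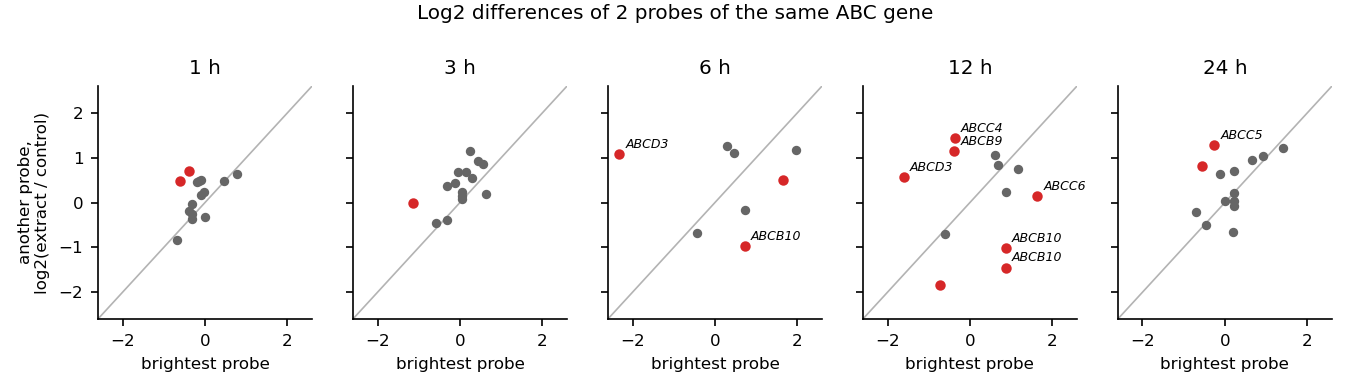
Log2 difference of a member's brightest probe (horizontal axis) against that of another probe of the same member (vertical axis) at each time, both measured, with the line of equality in grey. Red points are pairs more than 1 log2 unit apart, 3 of 8 at 6 h and 7 of 12 at 12 h, with ABCD3, ABCB10 and ABCC6 among them.

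Probes of an ABC member differed most often on the dim arrays, but pairs were few and some members gave several. Of the 14 members with several probes, pairs more than 1 log2 unit apart numbered 2 of 15, 1 of 15, 3 of 8, 7 of 12 and 2 of 14 at 1, 3, 6, 12 and 24 h. The median gap was 0.27, 0.44, 0.93, 1.31 and 0.28 log2 units at these times. The part of array brightness in these gaps was not tested.

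Of the 4 members that act on ribosomes and translation, ABCF1 and ABCF2 were at least 2-fold higher at 24 h, a size that 6.97% of all genes reached; 4 genes are too few to compare with that share. ABCF1, which binds initiation factor eIF2, had a scaled log2 signal of 2.34 in control cells, then 2.79, 2.90, 3.02, 2.78 and 3.39 at 1, 3, 6, 12 and 24 h. All 5 treated arrays were above the control, and the difference was 1.05 ± 0.69 at 24 h. At 6 h it was 0.68, and -0.71 with the normexp correction.

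ABCF2, a cytosolic relative without a membrane domain, had a scaled log2 signal of 0.35 in control cells, then 0.82, 0.92, 0.64, 0.97 and 1.77 at 1, 3, 6, 12 and 24 h. All 5 treated arrays were above the control, and the 24 h array was highest, with a difference of 1.42 ± 0.69. The other ABCF2 probe gave 0.48, 0.86, 1.26, 1.06 and 1.23 at 1, 3, 6, 12 and 24 h, and was highest at 6 h. At 6 h the probe used gave 0.29, and -0.21 with the normexp correction. RefSeq names the probe used ABCF2-H2BK1 and the other one ABCF2.

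ABCF3 had a scaled log2 signal of 1.58 in control cells, then 1.76, 1.72, 2.44, 2.04 and 1.56 at 1, 3, 6, 12 and 24 h. It was highest at 6 h and at the control's level at 24 h, with differences of 0.86 ± 0.77 and -0.03 ± 0.69. The difference at 6 h was -0.38 with the normexp correction.

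ABCE1, which splits ribosomes after translation ends, had a scaled log2 signal of 0.99 in control cells, then 1.00, 1.62, 0.55, 0.39 and 1.00 at 1, 3, 6, 12 and 24 h. By this brightest probe, the 3 h array was above the control, those at 6 and 12 h below it, and those at 1 and 24 h at its level. Its differences were 0.63 ± 0.44 at 3 h and -0.60 ± 0.68 at 12 h. The other ABCE1 probe gave -0.33, 0.19, -0.67, -0.70 and 0.04 at 1, 3, 6, 12 and 24 h. Its value at 3 h was smaller than the error.

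The 23 members outside the rule for values array by array (ABCD4 is one of them) held 11 that were not well above background on any array and 12 that were measured. Their lowest differences were -0.68, -1.13, -0.999, -0.91 and -0.70 at 1, 3, 6, 12 and 24 h, and their highest 0.77, 0.68, 0.88, 1.10 and 1.23. The lowest, at 3 h, was ABCC5 (MRP5, a cyclic nucleotide exporter), picked out after its value was seen; its other probe gave -0.02. The highest, at 24 h, was the pseudogene ABCA11 at 1.23 ± 0.69, likewise picked out. Over all members measured at all 5 times, 5 of 28 were above the control at every time (ABCA10, ABCC10, ABCD4, ABCF1 and ABCF2), 17.9% beside 17.7% of the 10382 genes so measured. With the normexp correction ABCF1 and ABCF2 were below it at 6 h. Within 2-fold throughout were 17 of 28, 60.7% beside 54.8% of those genes.

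The dependence on time was tested by regressing each gene's log2 signal against log2(hours + 1), with the control placed at 0 h by assumption, by limma with Benjamini-Hochberg adjustment over 13610 genes. The residual is scatter about a line on 4 degrees of freedom, not spread between replicates. No slope passed an adjusted p of 0.05, 0 of 35 members and 0% of all genes. At an unadjusted p under 0.05, 6 members had a rising slope (ABCB1, ABCC2, ABCC10, ABCD4, ABCA11 and ABCF2), beside 3.61% of all genes, and 0 had a falling one, beside 6.16% of all genes. The fitted change of ABCB1 over 0 to 24 h was 1.82 on the log2 scale (adjusted p = 0.456 by limma), and 0.53 without the 24 h array; that of ABCC2 0.98 and that of ABCC10 1.08. The fitted line pointed up for 24 of 35 members and down for 11, 68.6% up beside 59% of all genes tested, and the median fitted change was 0.27 for the members and 0.17 for all genes tested.

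Without the dim 6 h and 12 h arrays, an alternative chosen after the data were seen, 1 member passed, beside 4.57% of all genes. This was ABCB1, with a fitted change of 2.42 and an adjusted p of 0.0092 by limma. ABCF2 followed with a fitted change of 1.36 and an adjusted p of 0.0516. That fit had fewer residual degrees of freedom than the 4 of the full one. It also left out the 6 h array, on which ABCB1 was close to the control, so its p-values are to be read with caution.

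Genes outside the family that sense the substrates of these pumps or work beside them were examined as lists. The trend test was passed by 0 genes of any list. Over all measured genes, the 2-fold mark was reached upward by 23.3% and downward by 9.95% at 6 h. The matching shares were 12.6% and 8.09% at 12 h, and 6.97% and 9.62% at 24 h. Each list is too short to compare with these shares, so its counts are given without a conclusion. Of 15 sensor genes, all measured, 3 were at least 2-fold higher and 3 lower at 6 h, and 1 higher and 0 lower at 24 h. AHR, the aryl hydrocarbon receptor, differed by -1.91 at 6 h and 0.15 at 24 h. NR1I2, which encodes the pregnane X receptor known to induce ABCB1, differed by -1.02 at 6 h and -0.21 at 24 h, and NFE2L2 by -1.11 and -0.32. Of 9 genes of drug oxidation, glutathione synthesis and conjugation, 1 was at least 2-fold higher at 24 h (UGT1A6, a glucuronosyltransferase, at 1.69, whose last exons the UGT1A genes share). Lower at 24 h were 3 of the 9: GSTA1, a glutathione transferase, at -3.14, CYP3A4, an oxidising cytochrome, at -1.64, and GCLC, of glutathione synthesis, at -1.14. Of 8 translation partners of ABCE1 and ABCF1, 2 were higher at 24 h, among them GSPT1 by 1.68, and 0 lower. Of 9 partners in mitochondrial haem and iron-sulphur synthesis, 3 were higher and 1 lower at 6 h and likewise at 12 h, and 0 of 8 differed by 2-fold at 24 h. Of the other lists at 24 h, 1 of 9 LXR and sterol-efflux partners was higher and 1 lower, 1 of 11 canalicular and basolateral partners was higher and 2 lower, 1 of 8 peroxisomal partners was higher and 0 lower, and 0 of 6 peptide-loading genes and 0 of 2 measured ABC relatives differed by 2-fold.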

How the data were processed

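Gene expression was read on 6 one-colour Agilent arrays, 1 per group, so precision is limited by the number of arrays. Per the file headers, the deposited scanner files hold intensity values per spot, including a processed signal corrected for background by the scanner software and not scaled between arrays. Cy5 is the dye in the labels, but the files' columns are of the green channel. The authors' deposited value table holds unscaled intensity equal, to a tolerance of 0.51 units, to median signal minus local background (99.9% of probes or more, per array). Software version and probe genome build: not given in the sources used here.

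The 1639 control spots and 105 flagged probes were left out. Log2 processed signal was scaled to each array's 75th percentile. Probes were named through RefSeq (names and chromosomes only), which gave 26789 probes 1 symbol. The brightest probe stood for a gene. Differences are treated minus control. Trends were fitted with limma 3.58.1 for genes with 3 or more arrays well above background, and tested on simulated data. The members, lists and tests were chosen with earlier results of these data known. The rule was to give all values on 6 arrays for 22 members chosen for their roles and for any other at least 2-fold from the control in 1 direction at 2 or more times. A few of these are not reported here. Alternatives were normexp background (offset 50), quantile, cyclic loess and detected-median scaling, the deposited table, the mean over probes, other filters and a 1.5-fold threshold.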

Additional observations from a re-analysis of the deposited data

How the results depend on the processing

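The rule for values array by array covered 12 differences of at least 2-fold, and that of ABCD4 at 12 h is not among them. All 12 kept that size and direction with the authors' deposited table and with scaling to the median of detected probes. With quantile and with cyclic loess normalization 11 did, with normexp 8 and with the mean over all probes 8. ABCD4 was not among the members higher at 12 h with the authors' deposited table (ABCB6 and ABCC6) or with cyclic loess (ABCC6). ABCB1 at 24 h lay between 2.28 and 2.49 over these settings. With normexp, 2 members were at least 2-fold lower at 3 h, 2 lower at 6 h and 7 higher at 12 h, and the members' median was -0.0156 at 3 h, -0.10 at 6 h and 0.60 at 12 h, beside -0.15, -0.05 and 0.36 over all genes. With cyclic loess, 2 were lower at 3 h and 1 higher at 12 h, and the median at 6 h was 0.13 (0.16 over all genes). With detected-median scaling, 2 were lower at 6 h. With the mean over probes, 0 were lower at 3 h, 1 higher and 2 lower at 12 h and 1 lower at 24 h, and the medians were 0.17 at 1 h, 0.25 at 3 h and 0.35 at 12 h, beside -0.01, 0.02 and 0.17 over all genes. Without the filter on dim probes, 1 was higher and 2 lower at 1 h, 1 and 3 at 3 h, 16 and 2 at 6 h, 6 and 2 at 12 h, and 1 lower at 24 h. At 1.5-fold, 2 were higher and 2 lower at 1 h, 4 and 3 at 3 h, 11 and 5 at 6 h, 11 and 6 at 12 h, and 10 and 2 at 24 h. The causes were not tested, other than that the last 2 choices widen what is counted. Without the filter, ABCA8, ABCD2 and ABCG4 counted as higher at 6 h, though none was well above background on any array. Their scaled log2 signals were -8.16, -7.94 and -8.30 in control cells and -5.53, -5.31 and -5.71 at 6 h. The mean over probes also takes in dim probes. For the counts in this paragraph the share over all genes is not given, so they are not compared with it.

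The trend count was 0 members in every planned setting, leaving out each array in turn included, and 1 without the 6 h and 12 h arrays. The members at an unadjusted p under 0.05 numbered 6 of 35, beside 1329 of 13610 genes. With normexp there were 0 members (485 genes), and without the control array 0 (645 genes). Without the 1 h array there was 1 (ABCG8, beside 728 genes), and without the 3 h array 1 (ABCB1, beside 977 genes). Without the 24 h array there were 6, 4 rising and 2 falling, beside 2778 genes. Of those 6, ABCD4 alone was among the 6 found with all arrays. No paired analysis was possible because each group held 1 array. The slide could not be fitted as a block, since the file headers used here name no slide, and batch and time cannot be told apart. Depth in the sense of signal over background limits most of all the 6 h array.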
